A study of Mus musculus with 10 samples.

Results

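Endothelial cells line blood vessels, and 35 of the 17404 genes in the table are genes that such cells are known to express, chosen as a named list of 15 sinusoidal and 20 pan-endothelial genes. They were read in bulk RNA-seq libraries of long-term hematopoietic stem cells (LT-HSCs) sorted from E14.5 mouse fetal livers, 6 from KO embryos and 4 from WT embryos. KO embryos are Tnfrsf11aCre/+; Spi1f/f, in which the Cre of the Tnfrsf11a locus deletes the floxed Spi1 in macrophage precursors and their progeny, and fetal macrophages are depleted as a result. WT embryos are their Tnfrsf11a+/+; Spi1f/f littermates, so every embryo carried the floxed Spi1 alleles and none of the controls carried Cre; all mice were kept on a C57BL/6 background. Cells were sorted as live, lineage-negative, c-Kit-positive, Sca1-positive, CD48-negative and CD150-positive, with an antibody panel that held neither CD45 nor an endothelial marker. The list was selected on 2 readouts of these same libraries, the co-variation of sinusoidal with pan-endothelial levels and the difference between KO and WT, so both are described here and no test is built on the list.

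Liver sinusoidal endothelial cells form the wall of the liver's capillaries. They have open pores (fenestrae) in place of a tight barrier. Through a set of scavenger and lectin receptors they clear waste molecules from blood. The sinusoidal genes encode such receptors, and also secreted proteins, a signalling receptor, trafficking and diaphragm proteins and transcription factors. The pan-endothelial genes encode adhesion molecules, receptors, matrix proteins and transcription factors that endothelium of most organs shares. Hematopoietic stem cells arise from endothelium in the embryo and still express part of the pan-endothelial list, among them Pecam1, Eng, Emcn, Egfl7 and Robo4. The sinusoidal genes are known from sinusoids, and Mrc1, Stab1, Lyve1, Maf and Fcgr2b also from macrophages.

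Levels are given as CPM, the reads estimated for a gene relative to all reads of its library after TMM scaling (a trimmed mean of ratios between libraries), and they are compared between libraries, not between genes. For KO the lowest, the median and the highest of the 6 libraries are given, and for WT the 4 libraries in the order WT 1 to WT 4. The numbers only name the libraries. Depth was 5315435 to 30941726 counts in KO and 7633446 to 18256010 in WT. Spi1, the floxed gene, was at 9.10, 65.6 and 101 CPM in KO and at 6.22, 33.8, 50.1 and 7.64 CPM in WT, which does not check the genotype labels, since the deletion takes place in macrophage precursors. Of the genes that name the sorted cells, Kit, the gene of c-Kit, ranged over 78.2 to 389 CPM across the 10 libraries, Ly6a, the gene of Sca1, over 5.55 to 207 CPM, and Slamf1, the gene of CD150, over 9.86 to 76.9 CPM. Ptprc, which encodes CD45 on blood cells, was at 18.03, 92.1 and 149.5 CPM in KO and at 2.73, 27.9, 23.7 and 49.96 CPM in WT.

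WT 1 stood apart from the other libraries. Its Spearman correlation with them over 10698 genes was 0.730 to 0.814, and the 9 others correlated with each other at 0.790 to 0.945. In WT 1 the 15 sinusoidal genes summed to 172 CPM, against 8646, 6716 and 8667 CPM in WT 2, WT 3 and WT 4, and the 20 pan-endothelial genes summed to 1490 CPM, against 5327, 4428 and 4973 CPM. Ptprc was at 2.73 CPM in WT 1 and the 16 stem cell genes summed to 840 CPM beside 865 to 1105 CPM in the other WT libraries. KO 6 was the lowest KO library, with 1447 CPM on sinusoidal and 2264 CPM on pan-endothelial genes, and the other KO libraries had 4692 to 12280 and 3510 to 7567 CPM. The paper describes LT-HSCs sorted from fetal livers of both genotypes by a stated gate. The labels give cell type and stage alike for all 10 libraries but no organ or sort gate for a single one, so they do not check this for WT 1. Why WT 1 departs was not tested, and each WT mean and fold change that includes WT 1 is subject to this. Neither WT 1, with 14184429 counts, nor KO 6, with 15568825, was shallow. In bulk samples a lower level from fewer cells of a type and one from less RNA per cell cannot be told apart.

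**Figure D1:**
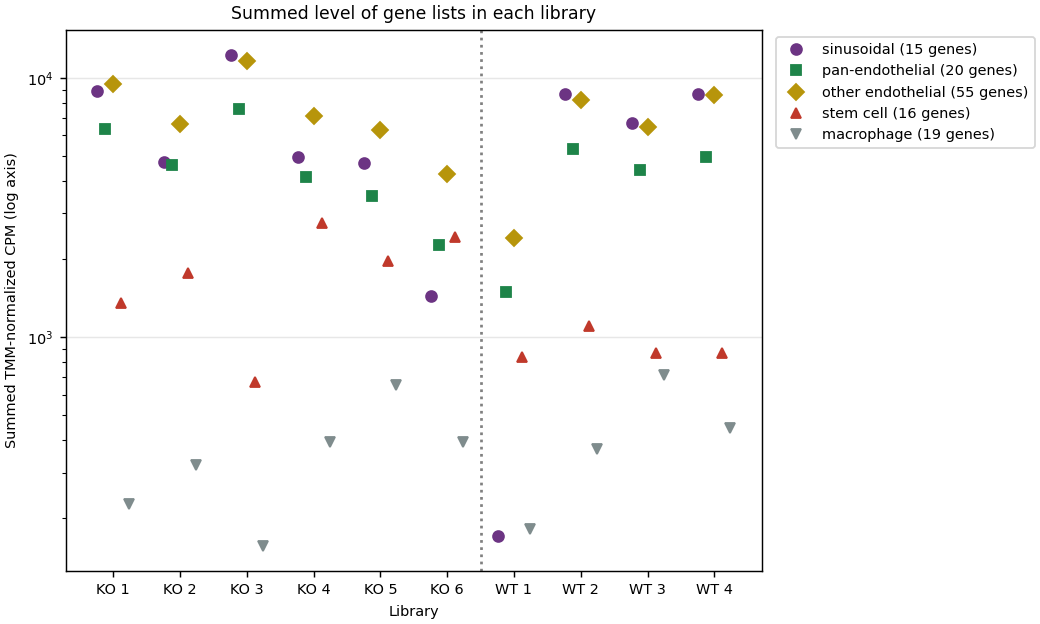
Summed TMM-normalized CPM (vertical, log axis) of 5 gene lists in each of the 10 libraries (horizontal), with KO left and WT right of the dotted line. The sinusoidal sum of WT 1, 172 CPM, lies far below that of every other library, of which KO 6 is the next lowest with 1447 CPM.

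Stab2, Stab1, Lyve1 and Mrc1, receptors that clear ligands from blood, were each above 60 CPM in 9 libraries and low in WT 1. Stab2, the hyaluronan-clearing stabilin-2, was at 272, 872 and 2118 CPM in KO and at 6.07, 1090, 827 and 989 CPM in WT, and its relative Stab1 was at 136, 496 and 911 CPM in KO and at 35.95, 671, 566 and 382 CPM in WT. Lyve1, another hyaluronan receptor, was at 169, 772 and 1576 CPM in KO and at 10.2, 1105, 798 and 1218 CPM in WT. For all of these genes WT 1 was the lowest library and KO 6 the next lowest, and the remaining KO and WT libraries overlapped. Mrc1, the mannose receptor CD206, was at 65.4, 259.8 and 714 CPM in KO and at 3.11, 387, 253 and 489 CPM in WT, in the same order of libraries. Clec4g, a lectin of sinusoidal cells, was at 21.9, 57.8 and 101 CPM in KO and at 1.74, 92.4, 83.04 and 197 CPM in WT, with WT 4 above every KO library. Fcgr2b, the inhibitory Fc receptor that binds immune complexes, was at 0.158, 6.37 and 12.7 CPM in KO and at 0.0758, 11.7, 15.2 and 29.3 CPM in WT. KO 2 held 1 read of Fcgr2b and was the lowest KO library for this gene, the only sinusoidal gene for which that was not KO 6.

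Secreted products of sinusoidal cells followed the same order of libraries. Oit3, a secreted protein, was at 157, 588 and 1730 CPM in KO and at 4.93, 1109, 894 and 1086 CPM in WT. Bmp2, a ligand through which sinusoidal cells instruct hepatocytes to make hepcidin, was at 15.1, 73.4 and 153 CPM in KO and at 1.82, 99.02, 89.7 and 126 CPM in WT. F8, coagulation factor VIII, was at 7.96, 36.9 and 56.0 CPM in KO and at 0.758, 32.2, 23.2 and 61.6 CPM in WT. WT 1 had under 2 CPM of Bmp2 and F8. Dnase1l3, a secreted DNase, was at 60.9, 288 and 643 CPM in KO and at 4.47, 826, 573 and 1704 CPM in WT, so that WT 4 exceeded all KO libraries and WT 2 exceeded all KO libraries as well.

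Membrane and endocytosis genes of the sinusoid comprised Gpr182, Ehd3 and Plvap. Gpr182, a chemokine-binding receptor, was at 132, 456 and 1171 CPM in KO and at 15.2, 814, 722 and 602 CPM in WT. Ehd3, an endocytic recycling protein, was at 239.7, 794 and 2315 CPM in KO and at 66.7, 1695, 1223 and 1450 CPM in WT. Plvap, which forms the diaphragms of fenestrae, was at 96.05, 326 and 577 CPM in KO and at 15.9, 436, 426 and 92.7 CPM in WT. Gpr182 and Ehd3 kept the common order, with WT 1 and KO 6 lowest, whereas Plvap was also low in WT 4, the library with the most Dnase1l3 and Clec4g. Of the transcription factors, Gata4, a regulator of the sinusoidal program, was at 42.5, 73.1 and 190.1 CPM in KO and at 0, 157, 147 and 105 CPM in WT. No Gata4 read was counted in WT 1, where 3 reads would have been 0.228 CPM. Maf was at 30.5, 85.8 and 189.6 CPM in KO and at 4.70, 121, 75.4 and 135 CPM in WT.

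**Figure D2:**
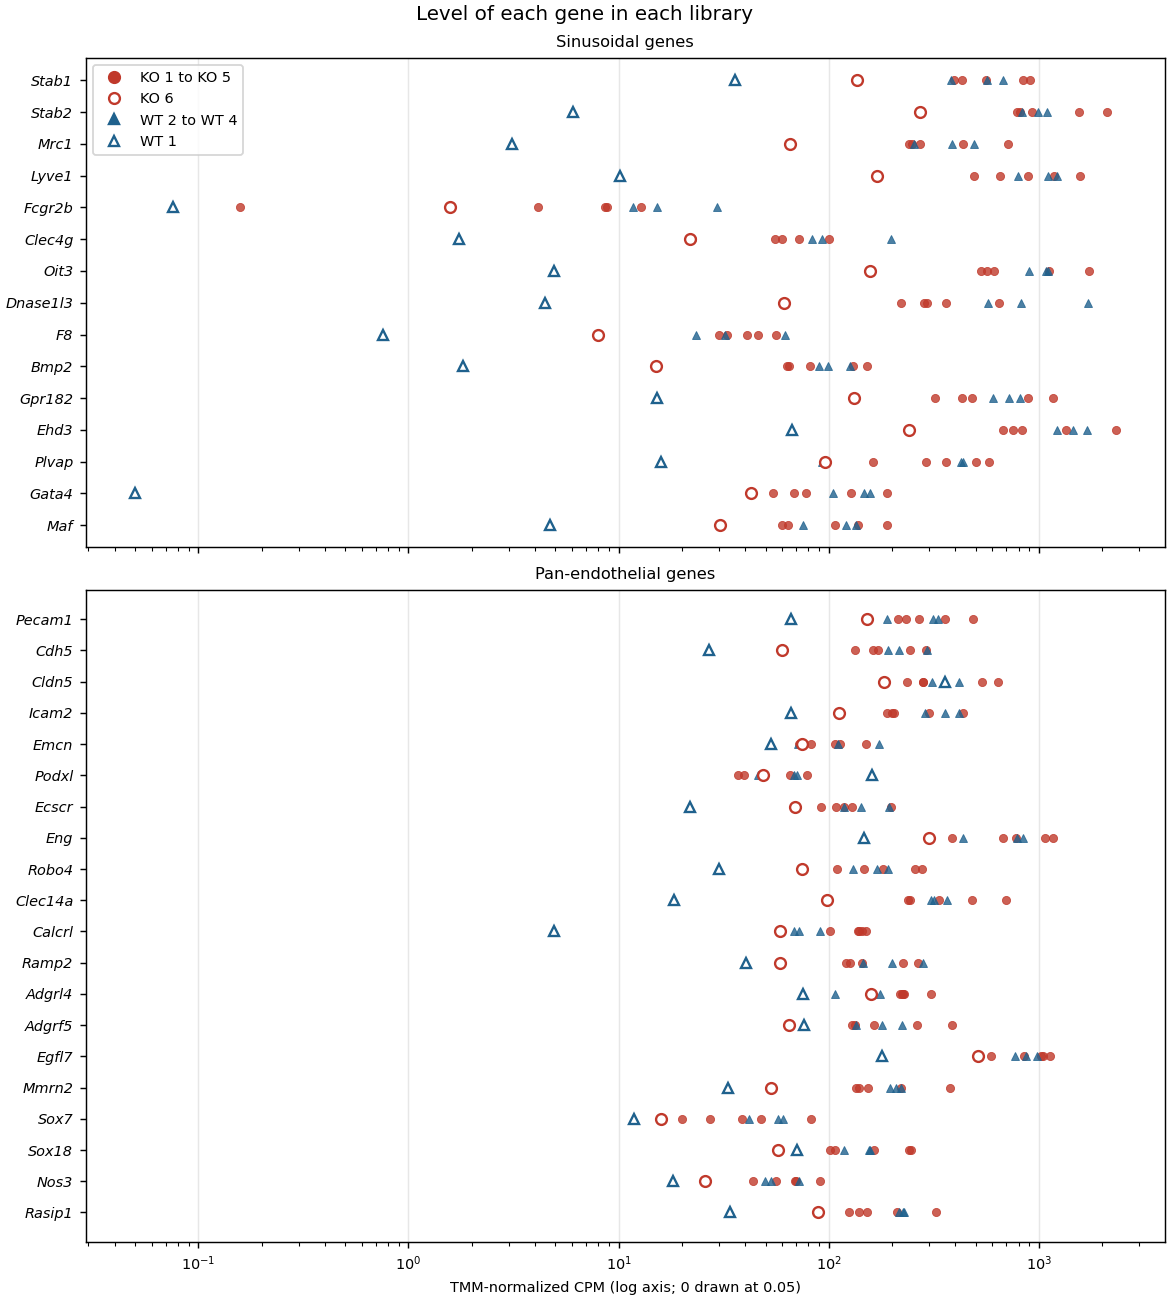
TMM-normalized CPM (horizontal, log axis) of the 15 sinusoidal genes (upper panel) and the 20 pan-endothelial genes (lower panel) in the 6 KO libraries (circles) and the 4 WT libraries (triangles), with KO 6 and WT 1 as open symbols. WT 1 is the lowest library for all 15 sinusoidal genes and for 16 of the 20 pan-endothelial genes.

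Pan-endothelial adhesion and junction genes varied over a narrower range. Pecam1, the adhesion molecule CD31, was at 151, 252 and 488 CPM in KO and at 65.9, 329.5, 188 and 313 CPM in WT. Cdh5, the VE-cadherin of endothelial junctions, was at 59.8, 167 and 289.7 CPM in KO and at 26.8, 216, 192 and 292 CPM in WT. Icam2, an adhesion molecule, was at 111, 203 and 433 CPM in KO and at 66.1, 359, 288 and 418 CPM in WT. These genes were lowest in WT 1 but remained readily detected there. Ecscr, an endothelial surface protein, was at 69.2, 113 and 197 CPM in KO and at 21.9, 143, 118 and 193 CPM in WT. Emcn, the sialomucin endomucin, was at 72.4, 94.8 and 149.8 CPM in KO and at 53.01, 110.4, 70.99 and 173 CPM in WT. Cldn5, a tight junction protein, was at 183, 281 and 640.3 CPM in KO and at 355, 419, 357 and 311 CPM in WT. Cldn5 was thus not reduced in WT 1, where it was at 98.1% of the mean of the other WT libraries. Podxl, the sialomucin podocalyxin, was at 37.1, 48.7 and 79.1 CPM in KO and at 161, 68.2, 46.2 and 70.3 CPM in WT, and was the only member whose highest library was WT 1.

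Signalling receptors of endothelium were all lower in WT 1 than in the other WT libraries. Eng, a co-receptor for TGF-beta family ligands, was at 299, 728 and 1163 CPM in KO and at 147, 844, 783 and 437 CPM in WT. Robo4 was at 74.8, 165 and 277 CPM in KO and at 29.9, 169.6, 192 and 129.8 CPM in WT. Clec14a was at 97.6, 289 and 698 CPM in KO and at 18.4, 365, 306 and 318 CPM in WT. Clec14a had the widest range of the pan-endothelial list. Calcrl and Ramp2 together form a receptor for adrenomedullin, and they differed in their pattern. Calcrl was at 58.8, 138 and 150.2 CPM in KO and at 4.93, 91.04, 68.5 and 72.04 CPM in WT, with 5 of the 6 KO libraries above the highest WT library, whereas Ramp2 was at 58.8, 135 and 266 CPM in KO and at 40.6, 199, 145 and 282 CPM in WT, with no KO library above the highest WT library. Adgrl4, an adhesion G protein-coupled receptor, was at 159, 225 and 307 CPM in KO and at 75.8, 161, 107 and 175 CPM in WT. As for Calcrl, 5 of the 6 KO libraries exceeded the highest WT library. Adgrf5, another adhesion receptor, was at 64.9, 149 and 387 CPM in KO and at 76.1, 178, 134 and 223 CPM in WT, with KO 6 lowest.

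Among matrix and secreted proteins, Egfl7 was at 512, 938 and 1124 CPM in KO and at 179, 978, 771 and 866 CPM in WT. Mmrn2, an endothelial matrix protein that binds Clec14a, was at 53.2, 147 and 376 CPM in KO and at 33.1, 219.9, 195 and 209 CPM in WT. Both had a group of WT 2 to WT 4 close together and WT 1 far below it. The SoxF transcription factors Sox7 and Sox18 were detected in every library. Sox7 was at 15.9, 32.9 and 82.5 CPM in KO and at 11.8, 57.3, 41.8 and 60.3 CPM in WT, and Sox18 was at 57.2, 136 and 245 CPM in KO and at 70.8, 119, 155 and 158 CPM in WT, lowest in KO 6. Nos3, the endothelial nitric oxide synthase, was at 25.7, 62.5 and 90.5 CPM in KO and at 18.1, 72.5, 52.9 and 49.96 CPM in WT. Rasip1, which vessels need to open a lumen, was at 89.1, 146 and 325 CPM in KO and at 33.8, 228, 217 and 225 CPM in WT, where WT 2, WT 3 and WT 4 differed by little and WT 1 was far below.

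The sinusoidal genes varied more between libraries than the pan-endothelial genes. The SD of log2(CPM + 0.5) over the 10 libraries had a median of 1.86 for sinusoidal genes (range 1.41 to 2.50), of 0.88 for pan-endothelial genes (range 0.53 to 1.47) and of 0.58 for all 16725 genes tested. Much of this difference came with WT 1, since the medians over the other 9 libraries were 0.97, 0.58 and 0.52. Within the 6 KO libraries they were 1.09, 0.68 and 0.43. In WT 1 the sinusoidal genes had a median of 1.40% of the mean of WT 2 to WT 4, with all 15 under 10%, and the pan-endothelial genes a median of 21.0%, with only Clec14a and Calcrl under 10%. KO 6 showed the same order at a smaller size, with medians of 20.2% and 40.5% of the mean of the other KO libraries. Summed sinusoidal over summed pan-endothelial CPM was 0.115 in WT 1 and 0.639 in KO 6, and lay between 1.03 and 1.74 in the other 8 libraries.

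Across the 10 libraries the mean log2 level of the sinusoidal genes rose and fell with that of the pan-endothelial genes, with a Pearson r of 0.96 and a Spearman rho of 0.90. Within the 6 KO libraries r was 0.96 and rho 0.77, and without KO 6 and WT 1, the 2 libraries farthest from the median, r was 0.85 and rho 0.81 over 8 libraries. The sinusoidal mean moved by 2.37 log2 units for each log2 unit of the pan-endothelial mean. The points share library preparation and scaling, and the value describes these libraries only. With Mrc1, Stab1, Maf, Fcgr2b and Lyve1, which macrophages also express, left out, r was 0.95, and with the pan-endothelial genes that stem cells share left out it was 0.94. The genes that remain were chosen by the same co-variation, so nothing about the source of the transcripts is read from these values.

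**Figure D3:**
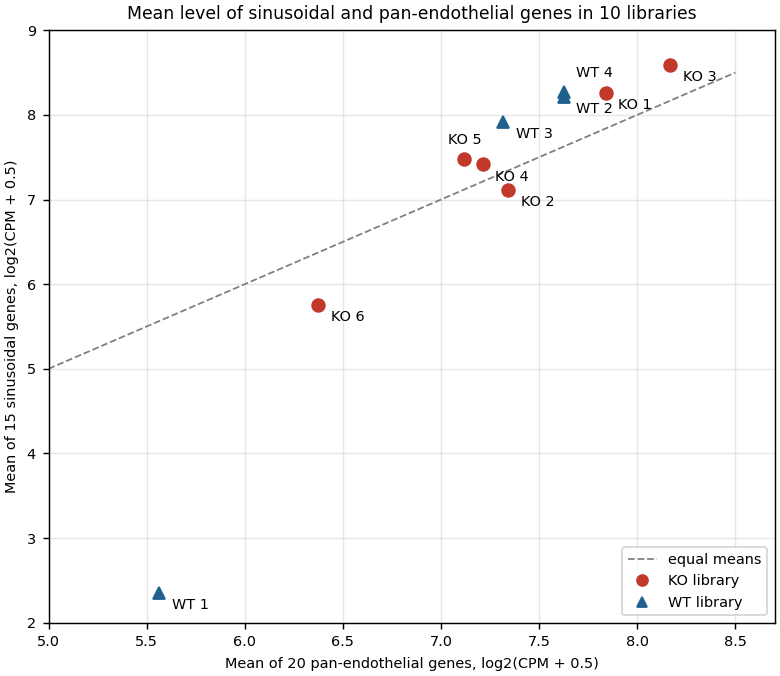
Mean log2(CPM + 0.5) of the 15 sinusoidal genes (vertical) against that of the 20 pan-endothelial genes (horizontal) in the 6 KO (circles) and 4 WT (triangles) libraries, with a dashed line where both means are equal. WT 1 lies 3.21 log2 units below the line and KO 6 lies 0.62 below it, and WT 2, WT 3 and WT 4 lie 0.59 to 0.65 above it.

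Pairs of sinusoidal genes had a median r of 0.95 over 105 pairs, none of them below 0. Pairs of a sinusoidal and a pan-endothelial gene had a median of 0.87 over 300 pairs with 15 below 0, and pairs of pan-endothelial genes a median of 0.84 over 190 pairs with 17 below 0. Without WT 1 the medians were 0.82, 0.80 and 0.78. Podxl stood out, with a mean r of -0.42 to the other members over 10 libraries and of 0.55 without WT 1. Cldn5 rose likewise, from 0.41 to 0.77. Adgrl4 went the other way, from 0.56 to 0.11, so that its shared variation with the list lay mostly in WT 1. Calcrl, from 0.75 to 0.40, and Plvap, from 0.75 to 0.50, also lost part of theirs. Ehd3 had the highest mean r over 10 libraries, 0.86, and Oit3 over the 9 without WT 1, 0.83, where Ehd3 had 0.82.

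**Figure D4:**
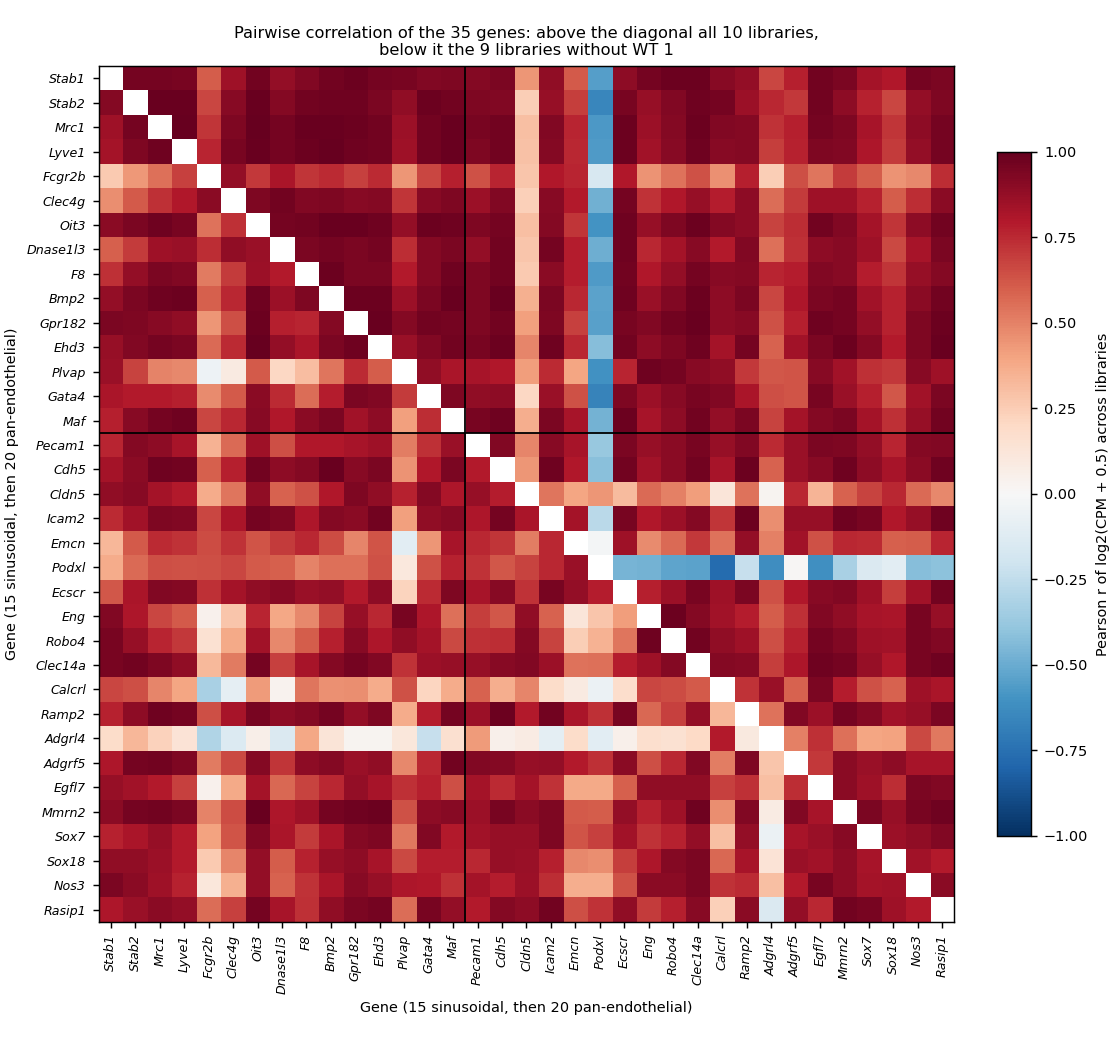
Pearson r of log2(CPM + 0.5) for each pair of the 35 genes, with all 10 libraries above the diagonal and the 9 libraries without WT 1 below it (colour scale from -1 to 1); black lines separate the 15 sinusoidal from the 20 pan-endothelial genes. Podxl has a mean r of -0.42 with the other members above the diagonal and of 0.55 below it, Cldn5 of 0.41 and 0.77, and Adgrl4 of 0.56 and 0.11.

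Promoters are shown for the 4 members with an entry in the RefSeq promoter table whose mean r with the other members over the 10 libraries was highest, to give the sequence at the start of genes that varied together. Each runs from 250 bases before the transcription start to 50 after it, 5′ to 3′ on the gene's strand, in build GRCm38.p6. The sequences lie at chr17:73804591-73804890 on the plus strand for Ehd3, chr12:58269209-58269508 on the minus strand for Clec14a, chr7:45627287-45627586 on the plus strand for Rasip1 and chr2:14229164-14229463 on the plus strand for Mrc1. Capitals mark matches, on either strand, to the searched motifs.
Ehd3: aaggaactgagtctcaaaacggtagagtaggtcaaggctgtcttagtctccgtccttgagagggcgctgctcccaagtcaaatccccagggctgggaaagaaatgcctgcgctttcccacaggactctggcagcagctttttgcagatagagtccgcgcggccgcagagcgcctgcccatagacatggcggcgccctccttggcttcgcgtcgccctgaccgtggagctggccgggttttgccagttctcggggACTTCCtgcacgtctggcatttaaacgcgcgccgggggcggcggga
Clec14a: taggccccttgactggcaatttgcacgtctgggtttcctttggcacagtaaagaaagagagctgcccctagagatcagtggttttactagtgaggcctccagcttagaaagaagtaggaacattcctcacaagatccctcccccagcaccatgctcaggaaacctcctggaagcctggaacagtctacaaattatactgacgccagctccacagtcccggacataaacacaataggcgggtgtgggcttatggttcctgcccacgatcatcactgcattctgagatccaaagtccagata
Rasip1: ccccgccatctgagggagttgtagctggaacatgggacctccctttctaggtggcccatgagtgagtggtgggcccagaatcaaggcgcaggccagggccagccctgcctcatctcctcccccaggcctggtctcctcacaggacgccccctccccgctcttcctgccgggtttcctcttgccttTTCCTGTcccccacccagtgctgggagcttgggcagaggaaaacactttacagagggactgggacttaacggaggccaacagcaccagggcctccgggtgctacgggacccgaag
Mrc1: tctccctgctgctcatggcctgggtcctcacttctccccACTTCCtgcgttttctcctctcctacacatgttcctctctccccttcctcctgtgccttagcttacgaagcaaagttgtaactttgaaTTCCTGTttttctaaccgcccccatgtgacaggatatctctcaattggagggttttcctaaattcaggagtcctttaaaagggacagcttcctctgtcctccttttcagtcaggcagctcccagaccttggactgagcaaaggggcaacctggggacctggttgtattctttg
Searched were GGAAGT, a core of ETS factor sites, ACAGGAA, the ETS part of a composite FOX and ETS site of endothelial enhancers, AGATAA for GATA factors and ACAAAG for SOX factors, none of which overlapped another in these windows. Ehd3 held GGAAGT on the reverse strand, starting 4 bases from the transcription start. Rasip1 held ACAGGAA at -65 and Mrc1 at -123, both reversed, and Mrc1 also held GGAAGT at -211, while Clec14a held none. Of the 35 members 17 had an entry, among which ACAGGAA was found in 7, GGAAGT in 5, ACAAAG in 1 and AGATAA in 0. The shares of all 27025 promoters of this length with the motif were 8.5%, 24.1%, 18.7% and 11.4% in the same order. A match describes letters and is not a binding site, and no binding data were used.

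Outside the list, the 10 genes most like the sinusoidal genes were searched among 9461 genes with a mean of at least 10 CPM, by the Pearson r of their log2 level with the mean of the standardized sinusoidal levels over 10 libraries. They were Igfbp4, Gimap4, Flt4, Irf8, Cemip2, Cd36, Adam12, Adam19, Gpr183 and Ccdc80, with r of 0.995 down to 0.989, and of 0.98 to 0.95 without WT 1. Flt4, which encodes the receptor VEGFR3, was at 537, 285, 662, 254, 266 and 78.8 CPM in KO 1 to KO 6 and at 11.9, 442, 349 and 432 CPM in WT. Of these 10 genes, Gimap4, Flt4 and Cd36 are in a list of 55 further endothelial genes. Cd36, a fatty acid transporter and scavenger receptor, was at 7.74 CPM in WT 1 and at 65.6 CPM in KO 6, the 2 lowest libraries.

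Other cell types moved with the endothelial genes to a different extent. The log2 sum of the 55 further endothelial genes had an r of 0.96 with the sinusoidal and of 0.99 with the pan-endothelial mean. For the 16 stem cell genes r was -0.04 and -0.20 over 10 libraries, and -0.77 and -0.74 without WT 1. KO 3, with the most sinusoidal and pan-endothelial CPM, had the least stem cell CPM, 674, and the least Ptprc of the KO libraries, 18.03 CPM. The 19 macrophage genes measured summed to 156 to 657 CPM in KO and to 182 to 715 CPM in WT, with an r of 0.29 and 0.02 over 10 libraries, and of -0.29 and -0.58 without WT 1. With edgeR, 2 of the 19 were lower in KO, beside 2.67% of all genes, and none was higher, beside 1.32%. Marco, a scavenger receptor of macrophages, had no read in the 6 KO libraries and 3.41, 5.32, 14.3 and 4.53 CPM in WT, with no overlap and an edgeR adjusted p of 0.0824, or 0.165 without WT 1. Slc40a1, the iron exporter ferroportin, was at 21.8, 35.1 and 57.4 CPM in KO and at 85.8, 79.9, 134.9 and 39.3 CPM in WT, with an edgeR adjusted p of 0.0944, or 0.182 without WT 1. The most abundant of the 19, Lyz2, which other myeloid cells also express, was at 50.9, 224 and 389 CPM in KO and at 33.1, 126, 229 and 206 CPM in WT, and C1qb was at 23.3, 28.1 and 55.04 CPM in KO and at 7.51, 66.6, 63.8 and 79.96 CPM in WT. Of the Kupffer cell genes, Timd4 was at most 0.588 CPM in KO and 1.59 CPM in WT, and Clec4f was at 0 in all libraries but WT 3 (3.85 CPM). Hepatoblast genes had an r of 0.02 and -0.21, and of -0.65 and -0.76 without WT 1, at sums of 125 to 9706 CPM in KO and 290 to 6661 CPM in WT. Stromal genes had an r of -0.71 and -0.68, and of -0.64 and -0.51 without WT 1. Their sums were 23.8 to 326 CPM in KO and 430, 69.8, 72.3 and 61.3 CPM in WT. Megakaryocyte genes had an r of 0.14 and -0.13, and of -0.59 and -0.77 without WT 1, at sums of 241 to 4481 CPM. Erythroblast genes had an r of -0.38 and -0.54, and of -0.40 and -0.58 without WT 1, at sums of 306 to 7263 CPM. What part these cells had in the members' levels was not tested.

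Per unit of transcript length, members were compared with genes of blood cells on the TPM scale, which divides the reads of each transcript by its length. Between 22 and 35 of the 35 members exceeded Ptprc in a library, 35 in KO 3 and 22 in KO 6. Stab2 was at 661, 348, 968, 371, 304 and 87.5 TPM in KO 1 to KO 6 and at 1.36, 401, 181 and 387 TPM in WT, and Ptprc was at 23.2, 35.9, 4.52, 45.9, 25.0 and 13.5 TPM in KO and at 0.726, 6.24, 4.24 and 8.77 TPM in WT. Stab2 was thus above Ptprc in all 10 libraries. Kit was a higher bar, which 5 members passed in WT 1, 8 in KO 6 and 13 to 30 in the other libraries. Egfl7 was above Kit in all 10 libraries, with 165 to 1599 TPM. The TPM of the stabilins was carried largely by transcripts annotated as other than protein-coding. Coding transcripts made up 0.886% to 19.5% of the TPM of Stab1 and 15.04% to 22.4% of that of Stab2. Egfl7 and Ramp2 also had much TPM outside coding transcripts, with coding shares of 36.8% to 81.7% and of 35.4% to 57.7%.

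KO and WT libraries overlapped for each of the 35 members, where 6.36% of the 16725 genes tested had no overlap. With edgeR's quasi-likelihood test, 0 of the 15 sinusoidal and 0 of the 20 pan-endothelial genes passed an adjusted p of 0.1, and 3.99% of all genes did. At an unadjusted p under 0.05 the counts were 0 and 1, beside 18.8% of all genes, and with DESeq2 at the study's settings 0 and 0, beside 6.79%. The rule that chose the list names this contrast, so nothing is read from these counts. Log2 fold changes of KO over WT had a median of 0.08 for sinusoidal genes (-1.32 to 0.57), of 0.21 for pan-endothelial genes (-0.71 to 1.04) and of 0.06 for all genes. Their standard errors were 0.67 to 1.05 for sinusoidal and 0.25 to 0.69 for pan-endothelial genes, so that for all 15 sinusoidal genes a change of 2-fold lay within 2 standard errors of 0.

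**Figure D5:**
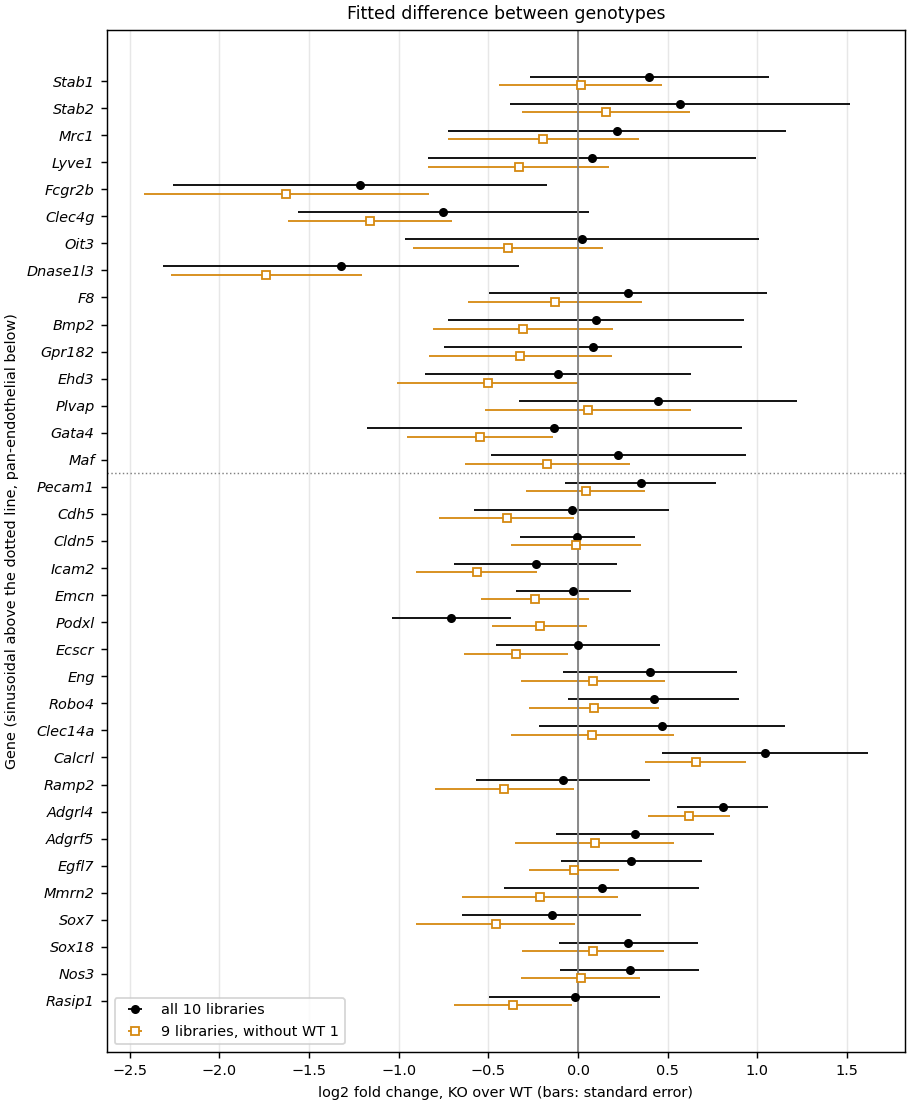
Log2 fold change of KO over WT (horizontal, bars are standard errors of the edgeR fit) of the 15 sinusoidal genes above and the 20 pan-endothelial genes below the dotted line, with all 10 libraries (filled) and without WT 1 (open). Leaving out WT 1 moves every sinusoidal gene to the left, and the median of the list from 0.08 to -0.32.

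The log2 fold change of 21 of the 35 members changed sign under at least 1 of 19 alternative fits. Leaving out WT 1 changed the sign for 10 of these members, which was not always the only fit to do so. Without WT 1, the median log2 fold change was -0.32 for sinusoidal genes, with 3 of 15 above 0 in place of 10. For pan-endothelial genes it was -0.02, with 9 of 20 above 0 in place of 12, while that of all genes was 0.08. Stab2 fell from 0.57 ± 0.95 to 0.16 ± 0.47 (log2 fold change ± standard error), and Lyve1 went from 0.08 ± 0.92 to -0.33 ± 0.50. Lower values without WT 1 were found for Dnase1l3, at -1.74 ± 0.53 after -1.32 ± 0.99, and for Clec4g, at -1.16 ± 0.46 after -0.75 ± 0.81. Their edgeR p without WT 1 was 0.00762 and 0.0264 unadjusted, and 0.188 and 0.261 adjusted over all genes, and under this fit 15.5% of all genes had an unadjusted p under 0.05 and none passed the adjusted p of 0.1.

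Adgrl4 was the member with the smallest p. Its log2 fold change was 0.81 ± 0.25 with an edgeR p of 0.00761, or 0.123 adjusted over all genes, and 0.62 ± 0.23 without WT 1, with an adjusted p of 0.236. Its adjusted p passed 0.1 without WT 4 (0.0931) and with DESeq2 without a fold threshold (0.0371), and ranged from 0.0371 to 0.268 over the alternatives. Calcrl, the adrenomedullin receptor, had 1.04 ± 0.58 with all libraries and 0.66 ± 0.28 without WT 1, at adjusted p of 0.359 and 0.295. Podxl had the lowest value of the pan-endothelial list, -0.71 ± 0.33 with an adjusted p of 0.277, and -0.21 ± 0.27 without WT 1, the library in which it was highest.

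The deposited transcript estimates allowed the share of the most abundant coding transcript to be compared for 10 members with at least 2 coding transcripts. Of these 10, Maf alone had no overlap between the genotypes, beside 2.19% of 3157 genes. Stab2 was not among the 10, and its 8228-base coding transcript made up 17.5 to 22.4% of its TPM in KO and 15.04, 16.2, 15.7 and 15.8% in WT. That too is without overlap, but no share over all genes was computed for such genes. Nothing about the genotypes is therefore read from the Stab2 values. The 6360-base transcript of Maf made up 54.7, 74.7, 50.04, 52.9, 63.2 and 66.8% of its TPM in KO 1 to KO 6 and 39.6, 40.1, 43.3 and 39.8% in WT, WT 1 included, the remainder being a transcript of 3223 bases. Every KO library was above every WT library. Calcrl, with its 3973-base transcript at 53.9 to 67.1% in KO and at 31.2, 66.9, 59.6 and 76.6% in WT, overlapped, as did Pecam1, Eng, Egfl7, F8, Emcn, Icam2, Robo4 and Adgrf5. The libraries were sequenced as short single reads, from which the shares of transcripts are estimates.

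The 55 further endothelial genes were not part of the list. With edgeR, 3 of them were higher in KO, where 1.32% of all genes were, and 0 were lower, where 2.67% were, while 9 had an unadjusted p under 0.05, beside 18.8% of all genes, and 4 passed with DESeq2 at the study's settings, beside 6.79%. The last 2 counts are near the shares of all genes. Selp, the adhesion molecule P-selectin of endothelium and platelets, was at 6.61, 26.9 and 57.4 CPM in KO and at 0.986, 1.95, 4.21 and 5.94 CPM in WT, with no overlap, a log2 fold change of 3.13 ± 0.67 and an edgeR adjusted p of 0.0824. Cd34, expressed by endothelium and stem cells, was at 179, 277 and 288 CPM in KO and at 95.6, 186, 118 and 125 CPM in WT, with 0.93 ± 0.23 and an adjusted p of 0.0824. Shank3 was at 3.55, 12.3 and 17.7 CPM in KO and at 1.36, 4.79, 3.55 and 3.11 CPM in WT, with 1.88 ± 0.52 and an adjusted p of 0.0931. Selp and Shank3 lie below the mean of 20 CPM used for naming these genes and are named because they were called. Selp and Cd34 are also known from platelets and stem cells, and the summed stem cell and megakaryocyte genes reached 2761 and 4481 CPM in KO against 1105 and 1840 CPM in WT, whose part in these values was not tested. Without WT 1, 0 of the 55 passed with edgeR, beside 0% of 16593 genes, and 8 had an unadjusted p under 0.05, beside 15.5%. None of the 55 passed either when KO 1, KO 2, KO 4, KO 5 or KO 6 was left out. The counts over all genes also moved with the library left out, so nothing about endothelial genes is read from this.

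Receptors for vessel growth factors mostly rose and fell with the sinusoidal genes. For single further genes only the r with the sinusoidal mean was computed. The 55 further genes as a sum had an r of 0.96 with the sinusoidal mean and of 0.99 with the pan-endothelial mean, so the receptors are not set apart as sinusoidal. Kdr, the receptor VEGFR2, was at 154, 502 and 1250 CPM in KO and at 50.8, 664, 520.5 and 794 CPM in WT, and its r with the sinusoidal mean was 0.97. Nrp1, Nrp2, Tek and Tie1 had an r of 0.94, 0.95, 0.94 and 0.91 with it. Flt1, the receptor VEGFR1, was an exception at 0.22, with 150, 258 and 453 CPM in KO and 277, 232, 154 and 399.7 CPM in WT, so that WT 1 was not low. Other genes with a mean of at least 20 CPM that were not lowest in WT 1 were Tm4sf1, Ptprb, Cav1, Aqp1, Vcam1, Thbd, Sox17, Lmo2, Tal1 and She. Cav1, the caveolae protein, was highest in WT 1, at 50.5, 18.9, 18.3 and 38.2 CPM in WT and 9.46, 14.6 and 30.6 CPM in KO, and Thbd, thrombomodulin, at 62.6, 28.4, 16.3 and 54.5 CPM in WT and 18.3, 24.6 and 36.1 CPM in KO. WT 1 therefore held some genes of the endothelial lists at levels of the other libraries or above, Cldn5, Podxl, Flt1, Cav1 and Thbd among them, and almost none of the sinusoidal ones. WT 1 also had the highest sum of stromal genes, 430 CPM, and which cells these transcripts came from was not tested.

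The vessel class genes Efnb2, Dll4, Ephb4, Nr2f2, Esm1 and Aplnr had an r of 0.75 to 0.96 with the sinusoidal mean, and WT 1 was the lowest library for each. Dll4, a Notch ligand of arterial and tip cells, was at 37.1, 76.05 and 179 CPM in KO and at 8.65, 47.7, 107 and 21.8 CPM in WT. Nr2f2, the vein factor COUP-TFII, was at 15.2, 56.3 and 163 CPM in KO and at 8.34, 79.7, 57.1 and 109.7 CPM in WT. Of the remaining genes at 20 CPM or more, Esam, S1pr1, Cd93, Clec1b, Gimap6, Myct1, Arap3, Plxnd1, Tfpi, Erg, Fli1, Ets1, Procr and Vwf were lowest in WT 1. Vwf, von Willebrand factor of endothelium and megakaryocytes, had an r near 0 with the sinusoidal mean, at 69.7, 136 and 312 CPM in KO and 61.4, 88.5, 72.5 and 94.7 CPM in WT, and was highest in KO 6.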

How the data were processed

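The data are 10 bulk SmartSeq2 libraries of sorted LT-HSCs, 6 KO and 4 WT, grouped by the genotype label. The p-values set the difference between KO and WT against the spread between these libraries. Libraries were sequenced as single-end reads, demultiplexed with bcl2fastq 2.20 and pseudoaligned with kallisto 0.44.0 to Gencode vM16 (mm10, GRCm38). For each library the authors deposited estimated counts, not normalized, and TPM, in which kallisto divides by effective transcript length. They also deposited whole-number counts per gene symbol, summed over transcripts and not normalized; 97.471% of these values lay within 1 count of sums made here, and the rule by which transcripts were assigned to symbols is not given in the sources used here. TPM of a gene were summed over its transcripts here, by Gencode vM21 on the same build.

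Genes with at least 11 counts in total (16725 of 17404) were compared with edgeR 4.0.16 (R 4.3.3; TMM, robust glmQLFit, glmQLFTest) with genotype as the only term and a Benjamini-Hochberg threshold of 0.1, which like the filter is that of the study. Standard errors were derived from the F statistic. DESeq2 1.42.0, the study's test, was an alternative, with others on scaling, filters, transcript length, embryo sex (the level of Xist) and each library left out. Correlations use log2(CPM + 0.5). The test was tried on simulated counts. Reads carry no molecular identifiers, so limits from 3 counts cover counting error only. All members with a mean of at least 5 CPM (all 35) are given with values, other endothelial genes from 20 CPM. The members, lists and tests were chosen with earlier results of these data known. Motif searches used both strands of RefSeq promoters (GRCm38.p6). Of the 20 macrophage and 14 erythroblast genes listed, 19 and 9 were in the table.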

Additional observations from a re-analysis of the deposited data

Results flagged for a closer look

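Within each genotype, every member and the summed levels were searched for a library far from the others, by the gap between the extreme library and its neighbour as a share of the whole range on the log2 scale. Of 76 groups of values 17 stood out, and WT 1 was the library in 16 of these. The members were chosen by their co-variation and are not independent of each other, so a single library recurs in the count. The count is therefore a description and is not set against a chance rate. Its sinusoidal sum was 172 CPM, its pan-endothelial sum 1490 CPM and the sinusoidal over pan-endothelial sum 0.115, beside 6716 to 8667 CPM, 4428 to 5327 CPM and 1.52 to 1.74 in the other WT libraries. Among sinusoidal genes WT 1 stood out for Stab2 (6.07 CPM), Mrc1 (3.11 CPM), Lyve1 (10.2 CPM), Oit3 (4.93 CPM), Bmp2 (1.82 CPM), Gpr182 (15.2 CPM), Ehd3 (66.7 CPM) and Gata4 (0 CPM). Among pan-endothelial genes it stood out for Clec14a (18.4 CPM), Calcrl (4.93 CPM), Egfl7 (179 CPM), Mmrn2 (33.1 CPM) and Rasip1 (33.8 CPM). In KO, only F8 was marked, with 7.96 CPM in KO 6 and 30.03 to 56.0 CPM in the other KO libraries.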

How the results depend on the processing

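No paired analysis was possible because the labels give the libraries no shared replicate numbers. Under 19 alternative fits, 14 members kept the sign of their log2 fold change and 21 changed it under at least 1, 10 of them without WT 1, and 3 of 665 values moved by 1 standard error or more. Adgrl4 alone was ever called, so that 1 pan-endothelial gene was higher with DESeq2 without a fold threshold and 0 to 1 with a library left out. The counts behind the background moved far: 221 genes higher and 446 lower became 585 higher with DESeq2 at the study's settings, 998 and 1145 with DESeq2 without a threshold, 51 higher with a transcript length offset, 0 and 0 with Xist as a covariate (905 and 1545 at an unadjusted p under 0.05), 0 and 0 at an adjusted p under 0.05 (1438 and 1701), and 0 to 405 and 0 to 598 with a library left out. The further endothelial genes, 3 higher and 0 lower, became 5 and 2 with DESeq2 without a threshold, 1 and 1 with the length offset, 0 higher with Xist, 0 higher at an adjusted p under 0.05, and 0 to 4 higher with a library left out, lowest without KO 1, KO 2, KO 4, KO 5, KO 6 or WT 1. The causes were not tested. The r of sinusoidal with pan-endothelial means, 0.96, was 0.92 in TPM, 0.85 without the 2 farthest libraries, 0.94 without the stem cell genes and 0.94 to 0.97 with a library left out. Leaving out WT 1 turned the median log2 fold change of sinusoidal genes from 0.08 to -0.32.

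With 4 WT libraries of which WT 1 departs, standard errors of sinusoidal genes were 0.67 to 1.05. A change as large as its standard error, or well above it, could therefore go uncalled. Depth was no limit for most members: counts in WT 1 fell to 0 for Gata4 and to 1 for Fcgr2b. WT embryos are littermates of KO embryos, and which embryos shared a litter is not given in the sources used here.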

Other observations

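Genes outside every list, chosen after their values were seen, differed in WT 1. Mfsd2a, a lipid transporter of brain vessels, was at 50.6 CPM in WT 1 and at 13.5 CPM in KO 6, and at 0.305 to 4.35 CPM in the other 8 libraries. Slco1c1, a thyroid hormone transporter of brain vessels, was at 94.1 CPM in WT 1, at 31.6 CPM in KO 6 and at 0 to 7.64 CPM in the others. Foxf2, a transcription factor of brain pericytes and vessels, was at 16.1 CPM in WT 1 and at 3.81 CPM in KO 6. WT 1 and KO 6 were the 2 highest libraries for these 3 genes and the 2 lowest for all sinusoidal genes but Fcgr2b and Plvap. Slc2a1, the glucose transporter of brain vessels and of red cells, did not share this order, with 844 CPM in WT 3, 506 CPM in KO 6, 488 CPM in WT 1 and 60.4 to 234 CPM in the other 7 libraries. The mast cell protease gene Cma1 was at 17.97 CPM in WT 1 and had no read in the other 9 libraries, and Tpsb2, a mast cell tryptase, was at 7.89 CPM in WT 1. What these levels stem from was not tested. The paper describes fetal livers and a stated gate for the sorted LT-HSCs, and the labels give no organ or gate for WT 1 by itself.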
